A study of Mus musculus with 12 samples.

Results

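Dopamine is made by a small population of midbrain neurons and acts mainly on neurons of the striatum, and the 8 genes described here cover both ends of that path. They were taken by gene symbol from the table of expression values, 8 of 18962 genes. The list was drawn up with earlier results of these data known. Th and Slc6a3 are genes of the midbrain cells that make dopamine. Drd1, Drd2, Drd3, Adora2a and Ppp1r1b are genes of the striatal cells that receive it. Dbh stands apart, because it is used by noradrenaline neurons. All 8 were listed in every library, and 7 of 8 passed the filter on low values (FPKM of at least 1 in at least 3 of 12 libraries). Drd3 did not, and was tested on its own. FPKM divides a gene's fragments by its length and by the total mapped in that library, so that levels can be compared between genes per length.

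Tyrosine hydroxylase, the product of Th, performs the rate-limiting step of catecholamine synthesis, and the transporter encoded by Slc6a3 takes released dopamine back into the nerve ending. In the striatum the D1 receptor stimulates and the D2 receptor inhibits the production of cyclic AMP, and the projection neurons that carry them form the direct and the indirect pathway of movement control. Dopamine neurons also carry D2 receptors as autoreceptors, so Drd2 RNA in whole brain has a midbrain source as well. The adenosine receptor gene Adora2a marks the neurons of the indirect pathway, and the product of Ppp1r1b, a phosphorylation-dependent inhibitor of protein phosphatase, integrates dopamine signals in both kinds of projection neuron.

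RNA was measured in brains of wild-type CBA/N mice, an inbred laboratory strain, after removal of the cerebellum and the olfactory bulb. The winter-like room had 8 h of light, 16 h of dark and 10 °C, and the summer-like room had 16 h of light, 8 h of dark and 30 °C. Mice spent 4 weeks in their room and brains were collected at about 13 h by the clock. The 12 libraries form 4 groups of 3, female winter, female summer, male winter and male summer, read from letter codes that the labels do not spell out. Light and temperature changed together and cannot be told apart, and the sources used here do not give the ages of the mice. Nothing in the labels says that the 3 libraries of a group came from separate animals, so p-values measure only the spread between these libraries. In a whole-brain sample, fewer cells of a type and less RNA per cell cannot be told apart.

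Sequences around the transcription start are shown for Th, Slc6a3, Drd1 and Drd2, the synthesis enzyme, the transporter and the main receptors, to show how much they differ in base composition and in common control motifs. Each runs 5′ to 3′ on the strand of the gene, with 250 bases before and 50 bases after a RefSeq transcript start, in GRCm38.p6. The windows are chr7:142899946-142900245 for Th, chr13:73536497-73536796 for Slc6a3, chr13:54055609-54055908 for Drd1 and chr9:49340153-49340452 for Drd2. Capitals mark matches on either strand to the cyclic AMP response element TGACGTCA or to the GC box GGGCGG.
Th: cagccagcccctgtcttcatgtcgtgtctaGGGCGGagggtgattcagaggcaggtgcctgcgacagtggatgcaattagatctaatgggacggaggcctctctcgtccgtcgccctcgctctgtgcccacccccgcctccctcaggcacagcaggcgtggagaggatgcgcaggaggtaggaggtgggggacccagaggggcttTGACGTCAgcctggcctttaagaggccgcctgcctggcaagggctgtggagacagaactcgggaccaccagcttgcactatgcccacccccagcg
Slc6a3: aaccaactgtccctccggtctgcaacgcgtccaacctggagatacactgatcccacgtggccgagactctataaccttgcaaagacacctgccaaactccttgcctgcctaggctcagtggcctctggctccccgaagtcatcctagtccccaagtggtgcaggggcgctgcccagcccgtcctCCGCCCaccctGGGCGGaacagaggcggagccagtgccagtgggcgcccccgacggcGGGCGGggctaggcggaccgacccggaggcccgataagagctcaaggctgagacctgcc
Drd1: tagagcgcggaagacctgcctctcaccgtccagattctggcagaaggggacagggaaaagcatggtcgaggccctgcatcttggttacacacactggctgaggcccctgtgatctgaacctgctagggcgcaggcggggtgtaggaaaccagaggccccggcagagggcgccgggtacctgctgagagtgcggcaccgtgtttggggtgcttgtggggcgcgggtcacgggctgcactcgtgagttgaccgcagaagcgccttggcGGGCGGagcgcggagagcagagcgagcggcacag
Drd2: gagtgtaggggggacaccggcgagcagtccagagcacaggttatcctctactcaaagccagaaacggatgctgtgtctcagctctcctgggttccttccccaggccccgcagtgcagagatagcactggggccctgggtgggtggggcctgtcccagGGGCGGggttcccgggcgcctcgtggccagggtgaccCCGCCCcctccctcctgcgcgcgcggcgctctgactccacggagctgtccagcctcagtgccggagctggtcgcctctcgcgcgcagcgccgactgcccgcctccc
Th carries 1 cyclic AMP response element, whose first base lies 45 bases before the start, and 1 GC box. The element is found in 1.79% of 32817 such windows and in no other member's window among those matched. Slc6a3 has 3 GC boxes, Drd2 has 2 and Drd1 has 1, and the GC box is found in 35.6% of all windows. The response element of the transcription factor Nr4a2, AAAGGTCA, is found in 1.51% of all windows and in no member's window among those matched. The GC content of the 4 windows is 64.3% for Th, 66% for Slc6a3, 65.7% for Drd1 and 70.3% for Drd2, against a median of 52.7%. Windows not shown are those of Dbh, at 54%, and Drd3, at 42%, with 0 GC boxes in each. Another window of Drd1, at chr13:54054731-54055030, has 59.3% and 1 GC box. A match is a description of the letters, not of a bound site. Of the 8 members 6 matched the RefSeq windows, and Adora2a and Ppp1r1b did not.

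Th (chr7:142892779-142899995, GRCm38.p6) had 8.52, 8.79 and 9.38 FPKM in the 3 female winter libraries and 9.3, 10.59 and 8.83 FPKM in the 3 female summer libraries. It had 7.72, 7.28 and 7.92 FPKM in male winter libraries and 8.81, 7.16 and 8.77 FPKM in male summer libraries. Every female library lay above every male library of the same season, while winter and summer libraries of each sex overlapped. Female and male libraries also separated for 16.6% of the genes tested in winter and 8.16% in summer. The share that separated in both seasons was not counted. Group means were 8.90 ± 0.440 FPKM in female winter, 9.57 ± 0.911 FPKM in female summer, 7.64 ± 0.327 FPKM in male winter and 8.25 ± 0.941 FPKM in male summer (SD, n = 3 each).

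Slc6a3 (chr13:73536128-73578672) had 4.53, 5.31 and 5.61 FPKM in female winter libraries and 5.83, 6.01 and 5.09 FPKM in female summer libraries. It had 4.91, 4.63 and 5.69 FPKM in male winter libraries and 4.58, 5.26 and 4.4 FPKM in male summer libraries. All 4 groups overlapped with each other, and the female summer group held the highest values. The order of its group means was not that of Th. Group means were 5.15 ± 0.557 FPKM in female winter, 5.64 ± 0.488 FPKM in female summer, 5.08 ± 0.549 FPKM in male winter and 4.75 ± 0.454 FPKM in male summer (SD, n = 3 each).

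Dbh (chr2:27165507-27183204) encodes the enzyme that turns dopamine into noradrenaline, and its RNA sits in a few small brainstem nuclei. It had 1.18, 1.55 and 1.26 FPKM in female winter libraries and 1.37, 1.56 and 1.26 FPKM in female summer libraries. It had 1.44, 1.55 and 0.93 FPKM in male winter libraries and 2.06, 1.02 and 1.3 FPKM in male summer libraries. The male groups spanned the whole range, and both the highest and the lowest library were male. Dbh was the most variable member, with a coefficient of variation of 21.5% over 12 libraries.

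Among the receptors, Drd1 (chr13:54051183-54055658) was the steadiest member, with a coefficient of variation of 5.00%. It had 13.07, 12.08 and 11.8 FPKM in female winter libraries and 12, 13.09 and 13.43 FPKM in female summer libraries. It had 11.49, 12.56 and 11.78 FPKM in male winter libraries and 12.95, 12.63 and 12.17 FPKM in male summer libraries. In both sexes the summer mean was the higher one, and the libraries overlapped.

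Drd2 (chr9:49340360-49408177) had 16.13, 21.1 and 22 FPKM in female winter libraries and 21.21, 19.62 and 19.81 FPKM in female summer libraries. It had 18.54, 18.2 and 19.66 FPKM in male winter libraries and 20.36, 21.62 and 19.54 FPKM in male summer libraries. The female winter group held both the lowest and the highest Drd2 value of the study, with a SD of 3.16 FPKM around a mean of 19.7 FPKM (n = 3). The other groups had SDs of 0.764 to 1.05 FPKM. The Drd2 locus overlaps the non-coding gene Gm46111 and the Ppp1r1b locus overlaps 1700003D09Rik. Neither is among the genes listed, and the sources used here do not say whether strand was used in counting.

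Drd3 (chr16:43754015-43825982) encodes a D2-like receptor known from the islands of Calleja and the nucleus accumbens, and it was the lowest member. It had 0.48, 0.55 and 0.45 FPKM in female winter libraries and 0.55, 0.58 and 0.53 FPKM in female summer libraries. It had 0.42, 0.42 and 0.47 FPKM in male winter libraries and 0.42, 0.51 and 0.51 FPKM in male summer libraries. Female and male libraries did not overlap in summer, as was the case for 8.16% of the genes tested, and they overlapped in winter.

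Adora2a (chr10:75316877-75334792) had 11.47, 14.66 and 13.29 FPKM in female winter libraries and 15.77, 13.29 and 13.81 FPKM in female summer libraries. It had 15.26, 13.71 and 12.48 FPKM in male winter libraries and 13.02, 14.48 and 12.99 FPKM in male summer libraries. Female winter replicate 1 was lowest for Adora2a, as it was for Drd2.

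Ppp1r1b (chr11:98348406-98357796) had 162.52, 173 and 185 FPKM in female winter libraries and 183.01, 167.99 and 161.08 FPKM in female summer libraries. It had 200.36, 197.5 and 174.66 FPKM in male winter libraries and 181.95, 190.32 and 162.52 FPKM in male summer libraries. The 2 highest libraries were both male winter, and all groups overlapped.

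**Figure D1:**
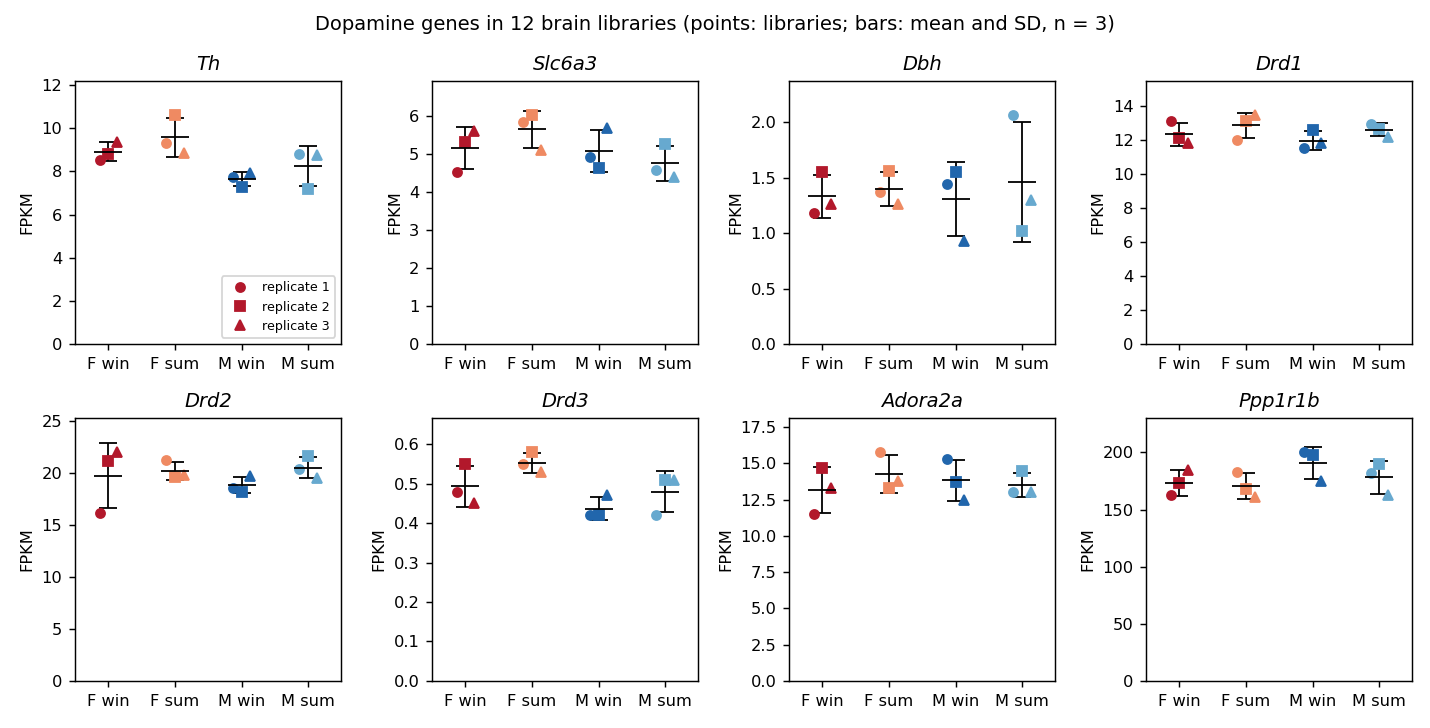
FPKM of the 8 genes in each library (vertical axis from 0, in FPKM; horizontal axis female winter, female summer, male winter and male summer). Points are libraries, with a shape per replicate number, and bars are the mean and SD of 3 libraries. For Th the 6 female points (8.52 to 10.59 FPKM) stand above the male points of the same season. Female and male libraries separated for 16.6% of the genes tested in winter and 8.16% in summer.

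Per length, the order of the genes was nearly the same in every library. Over the 12 libraries Ppp1r1b averaged 178 ± 13.6 FPKM, Drd2 19.8 ± 1.65 FPKM and Adora2a 13.7 ± 1.21 FPKM (SD, n = 12). Drd1 averaged 12.4 ± 0.622 FPKM, Th 8.59 ± 0.967 FPKM and Slc6a3 5.15 ± 0.552 FPKM. Dbh averaged 1.37 ± 0.296 FPKM and Drd3 0.491 ± 0.0560 FPKM. Each gene was above the next one in 12 of 12 libraries, except that Adora2a was above Drd1 in 11. The ranges of Adora2a (11.47 to 15.77 FPKM) and Drd1 (11.49 to 13.43 FPKM) overlapped, while no other neighbours in that order did. The level of Ppp1r1b was 8.72 times that of Drd2 at the median library (range 8.13 to 10.9). The level of Drd1 was 1.48 times that of Th at the median library (range 1.24 to 1.76), and that of Th 1.66 times that of Slc6a3 (range 1.36 to 1.99).

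No dopamine gene was called as different between winter and summer. Of the 7 members tested, none passed an adjusted p of 0.05 for winter against summer over both sexes, in a comparison that called 1 of 13071 genes (0.00765%; limma on log2(FPKM + 1), Benjamini-Hochberg adjustment over all genes). No member passed an unadjusted 0.05 either, against 638 of all genes. No member's winter and summer libraries separated, which 0.283% of all genes did. The source genes and the receptors leaned to lower levels in winter and Ppp1r1b to higher ones, all within their intervals.

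Th averaged 8.27 ± 0.771 FPKM in winter and 8.91 ± 1.10 FPKM in summer (SD, n = 6 each), a log2 difference of -0.09 ± 0.06 (SE, 95% interval -0.22 to 0.03). Slc6a3 averaged 5.11 ± 0.497 FPKM in winter and 5.20 ± 0.647 FPKM in summer, a log2 difference of -0.02 (-0.16 to 0.13). Dbh averaged 1.32 ± 0.243 FPKM in winter and 1.43 ± 0.355 FPKM in summer, a log2 difference of -0.06 (-0.28 to 0.15). For each of these 3 genes the difference between the season means was smaller than the SD within either season. Drd1 averaged 12.1 ± 0.585 FPKM in winter and 12.7 ± 0.552 FPKM in summer, a log2 difference of -0.06 (-0.16 to 0.03). Drd2 averaged 19.3 ± 2.12 FPKM in winter and 20.4 ± 0.876 FPKM in summer, a log2 difference of -0.08 (-0.22 to 0.06). The 3 winter libraries of Drd1 that lay below all summer libraries were among 6, and the same count held for Drd2, which also had 1 winter library above all summer libraries. Adora2a averaged 13.5 ± 1.39 FPKM in winter and 13.9 ± 1.08 FPKM in summer, a log2 difference of -0.04 (-0.19 to 0.10). Ppp1r1b averaged 182 ± 14.8 FPKM in winter and 174 ± 12.2 FPKM in summer, a log2 difference of 0.06 (-0.06 to 0.18). The adjusted p was 0.997 for each of the 7 genes (limma), and 6 of the 7 differences were negative, with a median of -0.062, against a median of -0.0030 over all genes. On the FPKM + 1 scale the intervals reached no further than 0.825-fold and 1.13-fold. Drd3 averaged 0.465 ± 0.0485 FPKM in winter and 0.517 ± 0.0543 FPKM in summer, a log2 difference of -0.05 with p = 0.075 in a two-sided exact permutation test over 400 assignments within sex, whose smallest p is 0.005. Without female winter replicate 2, or without male summer replicate 1, that p was 0.03. With 0.1 in place of 1 added to FPKM, the Drd3 season difference was -0.13 with a permutation p of 0.075.

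Within each sex 0 of 7 members were called for season. Among all genes 0 were called in females (0%; limma, 227 at an unadjusted 0.05) and 1 in males (0.00765%). The Th difference was -0.09 ± 0.08 in females and -0.09 ± 0.08 in males on the log2 scale (SE), so its direction was shared. Slc6a3 leaned in opposite directions, with a log2 difference of -0.11 ± 0.09 in females and 0.08 ± 0.09 in males. The difference between these season effects, -0.19 ± 0.13 (95% interval -0.48 to 0.09), did not pass (adjusted p = 0.999, limma). Adora2a had log2 differences of -0.12 ± 0.09 in females and 0.03 ± 0.09 in males, and the male one turned to -0.02 after a correction for GC content. Drd2 had -0.04 ± 0.09 in females and -0.12 ± 0.09 in males, and the female one turned to 0.09 when female winter replicate 1 was left out. No gene of the 13071 was called for the difference between the season effects (0%; limma, 235 at an unadjusted 0.05). Drd3 had exact permutation p-values of 0.3 in females and 0.4 in males, where 3 libraries against 3 cannot go below 0.1.

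**Figure D2:**
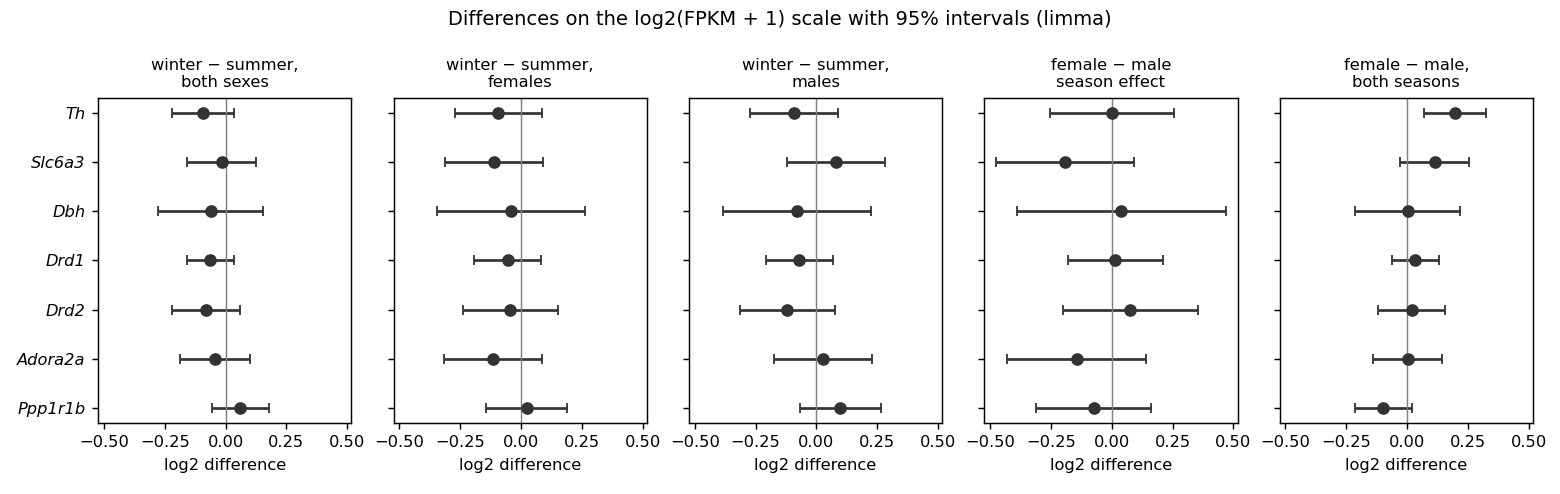
Differences on the log2(FPKM + 1) scale (horizontal axis) for the 7 genes tested (rows), in 5 comparisons: winter minus summer over both sexes, in females and in males, the season effect of females minus that of males, and females minus males over both seasons. Points are limma estimates and bars their 95% intervals, and among the intervals shown only that of Th for female minus male (0.07 to 0.32) lies off 0.

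Among the 7 members tested by limma, Th differed most between the sexes. It averaged 9.24 ± 0.740 FPKM in females and 7.94 ± 0.713 FPKM in males (SD, n = 6 each), a log2 difference of 0.20 ± 0.06 (SE, 95% interval 0.07 to 0.32). The difference did not pass the adjustment over all genes (unadjusted p = 0.00537, adjusted p = 0.369, limma), and none of the 7 members did, in a comparison that called 8 of 13071 genes (0.0612%). At an unadjusted 0.05 it was 1 of 7 members, against 11.6% of all genes. Female and male Th libraries did not overlap within winter or within summer, as was the case for 16.6% of all genes in winter and 8.16% in summer. Over both seasons they overlapped, 4 of 6 female libraries being above all male ones, and 0.643% of all genes separated. Under gene-by-gene sample weights Th was called, with a log2 difference of 0.27 and an adjusted p of 0.0349, in a fit that called 218 genes (1.67%). Leaving out 1 library at a time gave log2 differences of 0.15 to 0.22, with none called.

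Slc6a3 averaged 5.40 ± 0.541 FPKM in females and 4.91 ± 0.485 FPKM in males, a log2 difference of 0.11 (95% interval -0.03 to 0.26). Its ratio to Th did not differ detectably between the sexes, the Th to Slc6a3 ratio being 1.71 in females and 1.62 in males (geometric means, two-sided exact permutation p = 0.44). Dbh averaged 1.36 ± 0.160 FPKM in females and 1.38 ± 0.408 FPKM in males. The D1 and D2 receptor genes had differences inside their spread. Drd1 averaged 12.6 ± 0.695 FPKM in females and 12.3 ± 0.554 FPKM in males, a log2 difference of 0.03 (-0.06 to 0.13). Drd2 averaged 19.98 ± 2.09 FPKM in females and 19.7 ± 1.24 FPKM in males, a log2 difference of 0.02 (-0.12 to 0.16). Adora2a averaged 13.7 ± 1.45 FPKM in females and 13.7 ± 1.05 FPKM in males. Ppp1r1b averaged 172 ± 10.2 FPKM in females and 185 ± 14.4 FPKM in males, a log2 difference of -0.10 (-0.22 to 0.02) that was 0.0056 after the GC correction. Drd3 averaged 0.523 ± 0.0489 FPKM in females and 0.458 ± 0.0445 FPKM in males, a log2 difference of 0.06 with an unadjusted p of 0.02 in the exact permutation test. With 0.1 in place of 1 added to FPKM, the Drd3 difference was 0.16 with the same p. By limma 11.6% of the genes tested had an unadjusted p under 0.05 in this comparison. In a limma fit without the filter on low values the adjusted p of Drd3 was 0.509.

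Ratios between members within a library were compared to see whether parts of the path moved against each other. None of 8 tests passed (two-sided exact permutation, 400 assignments, n = 6 each). The Th to Slc6a3 ratio was 1.62 in winter and 1.72 in summer (exact p = 0.41). The Drd1 to Drd2 ratio, which sets the receptor of the direct pathway against that of the indirect one, was 0.632 in winter and 0.624 in summer (exact p = 0.905). The Adora2a to Drd2 ratio was 0.700 in winter and 0.681 in summer (exact p = 0.64). The Ppp1r1b to Drd1 ratio was 14.99 in winter and 13.71 in summer (exact p = 0.135), and 13.68 in females and 15.02 in males (exact p = 0.125). Adjusted over the 8 tests, both exact p-values were 0.54. Without female summer replicate 1 the unadjusted ones were 0.04 and 0.03, and without any other single library they were 0.06 or more. Ppp1r1b and Drd1 have the highest and the lowest transcript GC content of the members. After a correction for GC content their log2 differences between females and males were 0.0056 and -0.0073. The ratio was not tested on corrected values.

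Other genes of dopamine synthesis, storage and breakdown were not called for season either. Of 14 such genes 12 were tested and 0 were called, 7 with a positive and 5 with a negative season difference, and the list's median was 0.018. For female against male the median was 0.096, beside 0.011 over all genes, with 8 positive, 4 negative and 0 called. Of these 12 genes 4 had an unadjusted p under 0.05, all with higher values in females, against 11.6% of all genes in either direction. Without male winter replicate 1 that count was 2, both higher in females. Without female winter replicate 2 it was 7, of which 6 were higher in females. The share of all genes under 0.05 without those libraries is not given here, so these counts have no background beside them. Ddc, the decarboxylase that follows Th in the path, averaged 8.66 ± 1.38 FPKM in females and 7.48 ± 0.612 FPKM in males (log2 difference 0.18, adjusted p = 0.423, limma). Dnajc12, a co-chaperone of the aromatic amino acid hydroxylases, averaged 11.5 ± 0.929 FPKM in females and 9.93 ± 0.852 FPKM in males (log2 difference 0.20, adjusted p = 0.341, limma). Maob, a monoamine oxidase, averaged 12.8 ± 1.13 FPKM in females and 11.3 ± 0.790 FPKM in males (log2 difference 0.16, adjusted p = 0.382, limma). Slc18a2, the vesicular monoamine transporter, averaged 3.55 ± 0.609 FPKM in females and 3.06 ± 0.224 FPKM in males, a log2 difference of 0.15. Female winter replicate 3 was the highest library for both Ddc and Slc18a2. Without it the log2 differences were 0.10 for Ddc (unadjusted p = 0.112, limma) and 0.086 for Slc18a2. Maoa, the other monoamine oxidase gene, had a log2 difference of 0.02 between females and males and of 0.11 between winter and summer.

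Markers of midbrain dopamine neurons overlap with that list in Ddc, Slc18a2 and Aldh1a1. The summed level of all 17 markers was 97.7 to 102.57 FPKM in female winter and 88.0 to 95.5 FPKM in female summer. It was 88.37 to 97.18 FPKM in male winter and 86.89 to 93.68 FPKM in male summer. Of these 17 genes 9 were tested and 0 were called. For female against male 8 were positive and 1 negative, with a median of 0.10, and for season 6 were positive and 3 negative, with a median of 0.035. The negative one was Nr4a2, a transcription factor of these neurons that cortical neurons express too, with 12.7 ± 0.960 FPKM in females and 13.9 ± 1.37 FPKM in males (log2 difference -0.12). Aldh1a1, an aldehyde dehydrogenase of a subset of dopamine neurons, had the smallest season p of the list, with 41.8 ± 2.62 FPKM in winter and 37.9 ± 1.74 FPKM in summer (log2 difference 0.14, unadjusted p = 0.00415, adjusted p = 0.979, limma). That direction is opposite to the one of Th. Aldh1a1 lay at 36.26 to 45.75 FPKM, against 7.16 to 10.59 FPKM for Th, and which cells its RNA came from was not tested. Slc10a4, a vesicular transporter of the same list, averaged 4.197 ± 0.379 FPKM in winter and 3.82 ± 0.434 FPKM in summer (log2 difference 0.11). Pitx3, a defining factor of midbrain dopamine neurons, was at 0 to 0.15 FPKM and was not tested. For Dbh, the noradrenaline transporter gene Slc6a2 averaged 0.487 ± 0.0965 FPKM in winter and 0.533 ± 0.107 FPKM in summer and was not tested.

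Striatal genes beyond the members were not called for season. Of 28 signalling genes downstream of the receptors, all were tested and 0 were called for season, 9 positive and 19 negative, with a median of -0.012. Of 21 markers of striatal projection neurons, 6 were positive and 15 negative, with a median of -0.024 and 0 called. Gnal, the G protein subunit that couples the D1 receptor to cyclic AMP, averaged 59.5 ± 1.07 FPKM in winter and 62.2 ± 3.21 FPKM in summer (log2 difference -0.06). Adcy5, the main striatal adenylyl cyclase, averaged 47.5 ± 5.20 FPKM in winter and 49.7 ± 3.14 FPKM in summer (-0.07). Pde10a, a striatal phosphodiesterase, averaged 40.2 ± 2.56 FPKM in winter and 41.6 ± 3.20 FPKM in summer (-0.05). Rgs9, which speeds the shutdown of receptor signalling, had a log2 difference of -0.01. Homer1, a scaffold protein of the synapse, averaged 32.8 ± 6.05 FPKM in winter and 37.3 ± 8.84 FPKM in summer (-0.17). Strip2 had the smallest season p of the projection neuron markers and was higher in winter, with 15.03 ± 1.07 FPKM in winter and 13.5 ± 1.24 FPKM in summer (0.14, unadjusted p = 0.0211, adjusted p = 0.997, limma). Meis2, a transcription factor of that list, averaged 37.6 ± 2.22 FPKM in winter and 40.005 ± 1.88 FPKM in summer (-0.09). None of these passed the test.

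The neuropeptide genes that mark the direct and the indirect pathway had season differences smaller than their spread. Penk, the enkephalin precursor of the indirect pathway, averaged 125 ± 14.1 FPKM in winter and 124 ± 11.6 FPKM in summer. Tac1, the substance P precursor of the direct pathway, averaged 36.0 ± 0.916 FPKM in winter and 36.3 ± 3.57 FPKM in summer. Pdyn, the dynorphin precursor of the direct pathway, averaged 17.3 ± 0.949 FPKM in winter and 18.1 ± 0.944 FPKM in summer. Of 7 direct-pathway markers 4 were positive and 3 negative for season, and of 7 indirect-pathway markers 5 were positive and 2 negative, with 0 called in each. The smallest season p-values among them were those of Ebf1 and Sfxn1 for the direct pathway, with log2 differences of 0.09 and 0.06, and of Ttc12 and Sp9 for the indirect pathway, with 0.12 and -0.13. Of the remaining dopamine receptor genes, Drd5 averaged 1.62 ± 0.303 FPKM in winter and 1.78 ± 0.186 FPKM in summer (log2 difference -0.09), and Drd4 was at 0.04 to 0.17 FPKM.

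**Figure D3:**
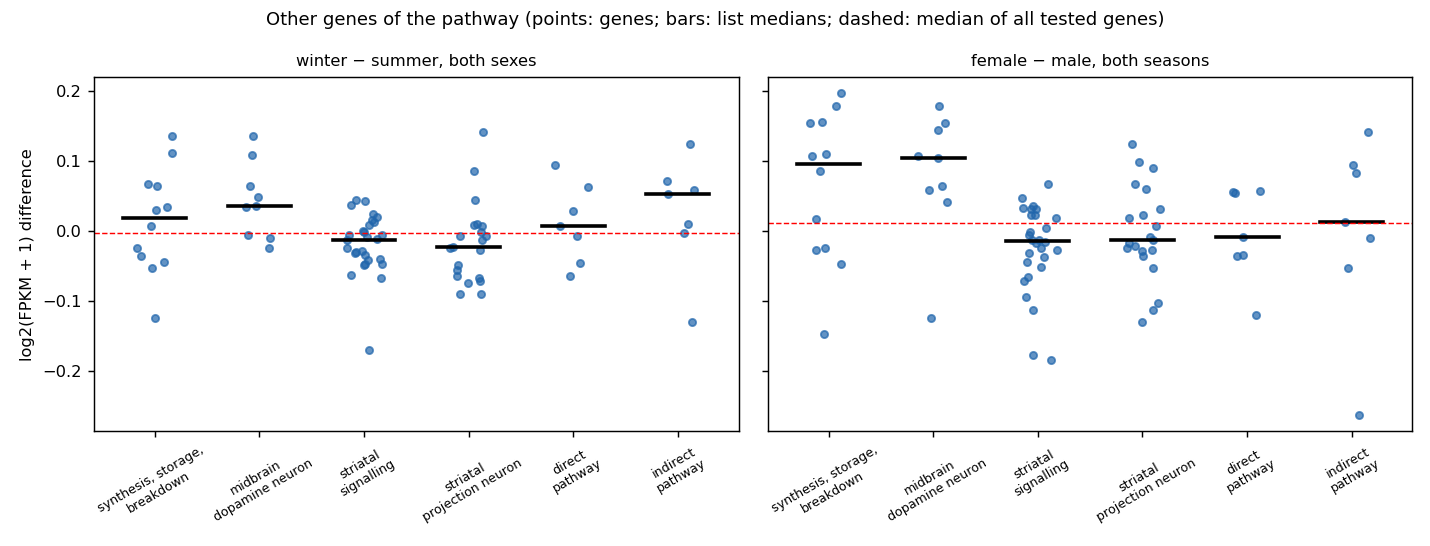
Log2(FPKM + 1) differences (vertical axis) of the tested genes in 6 lists of pathway genes (horizontal axis), for winter minus summer on the left and female minus male on the right. Points are genes, black bars list medians and the dashed line the median of all 13071 genes. For female minus male the medians of the synthesis and midbrain lists are 0.096 and 0.10, and those of the striatal lists lie near 0. Lists of other brain regions are not shown, and that of the thalamus had a median of 0.041.

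Several regions beside the midbrain express Th or Drd2, and their markers were read in the same libraries. The summed level of 9 markers of the olfactory bulb, whose interneurons use Th, was 65.8 to 77.5 FPKM in female winter, 71.0 to 87.3 FPKM in female summer, 70.4 to 81.3 FPKM in male winter and 64.8 to 86.8 FPKM in male summer. None of them was at 0 in all libraries, although the bulb had been removed, and 3 stayed under 1 FPKM in all. Calb2 of this list is also a listed thalamic marker, and whether these levels came from bulb tissue was not tested. Of 5 bulb markers tested, 4 had a negative season difference. Among them was Doc2g with 6.16 ± 1.21 FPKM in winter and 7.72 ± 0.954 FPKM in summer (log2 difference -0.29, adjusted p = 0.997, limma). The summed level of 9 markers of the hypothalamus, which also holds dopamine neurons, was 98.5 to 113 FPKM in female winter, 85.4 to 117 FPKM in female summer, 108 to 119.5 FPKM in male winter and 96.6 to 98.3 FPKM in male summer. Avp, the vasopressin precursor of that list, averaged 29.6 ± 3.57 FPKM in winter and 21.3 ± 4.06 FPKM in summer (log2 difference 0.46, unadjusted p = 0.000187, adjusted p = 0.407, limma). Among the other regional genes with the smallest season p-values of their lists, Nmb of the olfactory bulb had a log2 difference of -0.17 (unadjusted p = 0.0303) and Gata2 of the raphe list 0.17 (unadjusted p = 0.0323), by limma. Hdc, Slc22a3, Emx1, Neurod6, Cga, Prl, Pvalb, Rora and Tcf7l2 had unadjusted p-values of 0.0542 to 0.206 (limma). For 7 markers of raphe serotonin neurons, which lie near the midbrain dopamine cells, the sums were 10.4 to 18.1 FPKM in female winter, 8.64 to 10.5 FPKM in female summer, 9.79 to 10.4 FPKM in male winter and 9.29 to 11.2 FPKM in male summer. Female winter replicate 3 held the highest sum, with Tph2 at 5.8 FPKM and Slc6a4 at 3.46 FPKM, beside its Ddc level of 11.38 FPKM and its Slc18a2 level of 4.57 FPKM. Without it the Th difference between females and males was 0.18 on the log2 scale. Of 8 pituitary markers, which would bring Drd2, Pou1f1 was at 0 in every library and the sums were 0.8 to 4.34 FPKM over all libraries. The part of these contents in the results for Th and Drd2 was not tested.

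Male winter replicate 1 had the highest summed level of 8 cerebellar markers, at 228 FPKM against at most 147 FPKM in any other library, although the cerebellum had been removed. Its Cbln3 level was 18.2 FPKM. With that library left out, the count of members called was 0 in all 5 comparisons. Cortical markers, 9 in all, summed to 488 to 503 FPKM in female winter, 454 to 559 FPKM in female summer, 551 to 565 FPKM in male winter and 526 to 557 FPKM in male summer. Thalamic markers, 7 in all, summed to 135 to 163 FPKM, and Hox genes of the hindbrain, 11 in all, to 0.72 to 1.34 FPKM. For female against male 7 thalamic markers were positive and 0 negative, with a median of 0.041. Of them 2 had an unadjusted p under 0.05 (limma) and 0 were called. Cortical markers had 4 positive and 5 negative differences, and the cerebellar markers tested had 1 positive and 6 negative.

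The members were then compared across the 12 libraries, to see whether source and target genes vary together. On the log2 levels none of 28 pairs passed the adjustment (permutation test, 100000 resamples), with 19 correlations positive and 9 negative. Midbrain dopamine cells express both Th and Slc6a3, though Th is expressed in other regions too. The pair had a Pearson r of 0.42 (permutation p = 0.168, adjusted p = 0.522) and a Spearman rho of 0.46 (permutation p = 0.135, adjusted p = 0.538). Without the 2 libraries farthest from the median of Th, r was 0.33. Slc6a3 and Drd2 had r = 0.55 (permutation p = 0.0584, adjusted p = 0.323) and rho = 0.52 (permutation p = 0.0834, adjusted p = 0.538), and r was 0.70 without the 2 farthest libraries.

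With group means removed, Slc6a3 and Drd2 had the highest correlation, r = 0.76 (permutation p = 0.0015, adjusted p = 0.042) and rho = 0.72 (permutation p = 0.0108, adjusted p = 0.151), with r = 0.73 without the 2 farthest libraries. Shuffling all 12 deviations ignores that the group means were taken out. When they were shuffled only inside each group of 3, over 1296 exact assignments, p was 0.0108 and the adjusted p 0.302, so the pair no longer passed. The next pairs were Adora2a with Ppp1r1b (r = 0.72, permutation p = 0.0103, adjusted p = 0.144, rho = 0.73) and Drd1 with Drd2 (r = -0.63, permutation p = 0.0206, adjusted p = 0.192, rho = -0.59). Drd1 with Adora2a had r = -0.60 and Drd2 with Adora2a r = 0.61, neither past the adjustment. After a correction for GC content r was 0.66 for Slc6a3 with Drd2, 0.45 for Adora2a with Ppp1r1b, -0.24 for Drd1 with Drd2, -0.16 for Drd1 with Adora2a and 0.20 for Drd2 with Adora2a. Against the mean level of the midbrain and of the striatal marker list, none of 16 relations passed. The highest were Drd2 with the striatal list (r = 0.72, adjusted permutation p = 0.131) and Adora2a with the striatal list (r = 0.66, adjusted permutation p = 0.15), and Slc6a3 with the midbrain list had r = 0.60 (adjusted permutation p = 0.154).

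**Figure D4:**
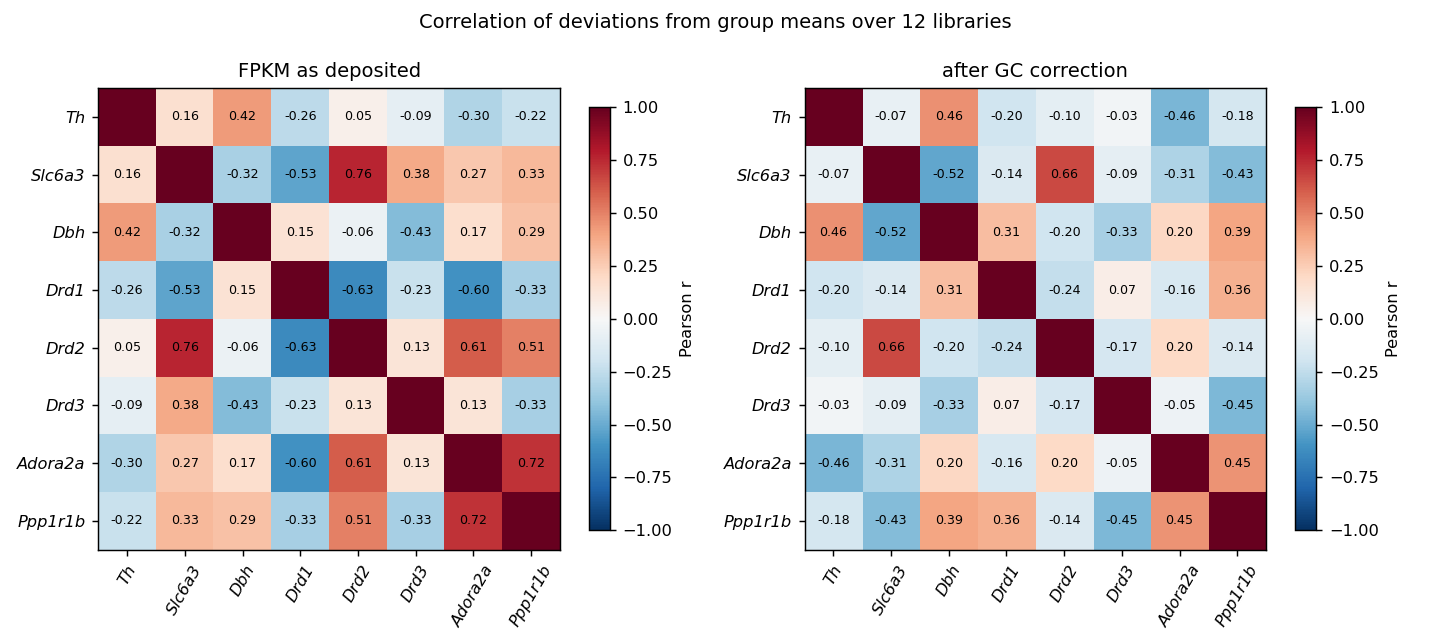
Pearson r between the 8 genes over 12 libraries, on log2(FPKM + 1) with group means removed (rows and columns are genes; colour and number give r from -1 to 1). The left panel uses FPKM as deposited and the right panel values corrected for transcript GC content; Drd1 with Drd2 reads -0.63 on the left and -0.24 on the right.

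The members differ in the base composition of their transcripts, and the libraries differed in how levels depended on it. Transcript GC content was 46.0% for Drd1, 51.6% for Slc6a3, 53.2% for Drd3, 54.0% for Th, 55.0% for Drd2, 55.9% for Dbh, 59.2% for Adora2a and 61.0% for Ppp1r1b, against a median of 49.8% over tested genes. The Spearman correlation over all tested genes between GC content and a gene's deviation from its mean was -0.60, 0.25 and -0.042 in female winter libraries and 0.47, -0.22 and -0.66 in female summer libraries. It was 0.43, 0.10 and 0.55 in male winter libraries and 0.050, 0.38 and -0.18 in male summer libraries. All 3 male winter libraries were positive, and every other group held both signs. Drd1, the member of lowest GC content, had r = -0.74 with this trend (permutation p = 0.00688, adjusted over 8 members 0.0550) and rho = -0.77 (permutation p = 0.00525, adjusted 0.042), with r = -0.59 without the 2 farthest libraries. Ppp1r1b, the member of highest GC content, had r = 0.69 (permutation p = 0.0143, adjusted 0.0572) and rho = 0.67 (permutation p = 0.0216, adjusted 0.0865), with r = 0.74 without the 2 farthest libraries. Adora2a had r = 0.56, and Th had r = -0.39. With group means removed, r with the trend was 0.75 for Slc6a3, 0.73 for Drd2, 0.69 for Adora2a, 0.56 for Ppp1r1b and -0.74 for Drd1. It was 0.33 for Drd3, -0.011 for Th and -0.047 for Dbh. The adjusted permutation p over 8 members was 0.0191 for Slc6a3, Drd2 and Drd1 and 0.0284 for Adora2a. Shuffling inside groups gave an exact adjusted p of 0.0772 for Slc6a3 and Drd2 and of 0.0941 for Drd1 and Adora2a. The 2 libraries with the most negative trend, replicate 1 of female winter and replicate 3 of female summer, had Drd1 at 13.07 and 13.43 FPKM and Ppp1r1b at 162.52 and 161.08 FPKM. After the GC correction the Th difference between females and males was 0.22 (adjusted p = 0.301, limma) and 0 members were called in any comparison.

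**Figure D5:**
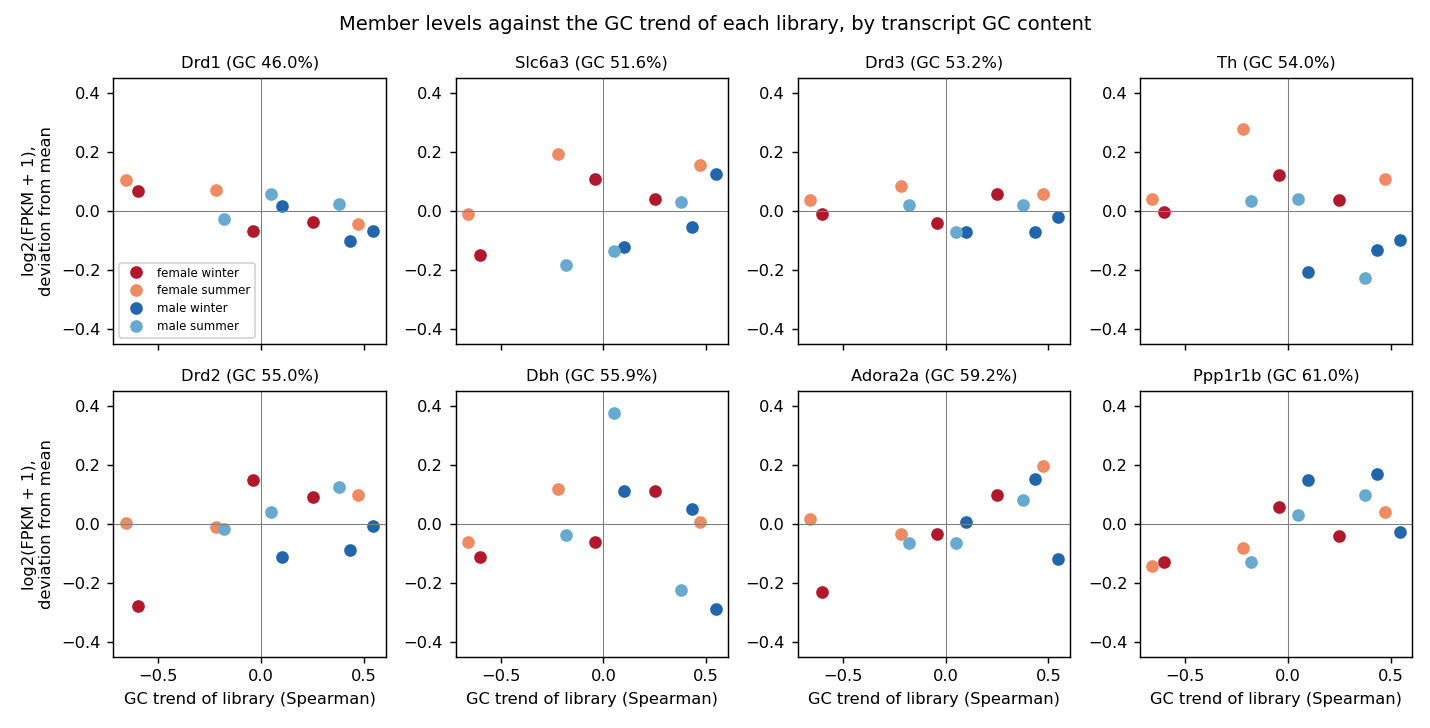
Deviation of each gene from its mean on the log2(FPKM + 1) scale (vertical axis) against the GC trend of the library, the Spearman correlation between GC content and deviation over tested genes (horizontal axis, no unit). Points are the 12 libraries, coloured by group, and panels run by transcript GC content from Drd1 (46.0%), whose points slope down (r = -0.74), to Ppp1r1b (61.0%), whose points slope up (r = 0.69).

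The genes whose levels were most like each member over the 12 libraries were looked up among all tested genes by Pearson r on log2(FPKM + 1), as a description. For Th they were Oprm1 (r = 0.91), Fars2 (0.88) and Prom1 (0.87), and for Slc6a3 Gadd45gip1 (0.87), Pdzrn4 (0.87) and Zfp423 (0.86). For Dbh they were Fam122a (0.84), Cav2 (0.81) and Prdm16 (0.80). For Drd1 they were Klhl5 (0.92), Tyw5 (0.92) and Reep3 (0.91), and for Drd2 Mical3 (0.94), Elfn1 (0.91) and Gpr108 (0.90). For Drd3 they were Kcna6 (0.89), Zfp825 (0.89) and Slc27a2 (0.87). For Adora2a they were Snx15 (0.89) and Rplp1 (0.88), and for Ppp1r1b Ift27 (0.97), Erf (0.93) and Slc7a8 (0.92). No member was among the 3 most alike genes of another. Slc6a3 ranked 1639 among the genes most like Th, and Drd2 ranked 554 among those most like Slc6a3. Each r is taken over the same 12 libraries, which differed in their GC trend, and the highest of 13071 genes was above 0.8 for each of the 8 members.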

How the data were processed

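The authors deposited 1 table of FPKM values for 18962 genes in 12 libraries, made from poly-A selected, strand-specific paired-end libraries, per the labels' protocols. Per the submitters' processing notes the tools were HISAT and RSEM and the build GRCm38.p6; the sources used here state neither versions nor settings. FPKM is relative to the rest of each library. The deposited values summed to 358511 to 375041 per library, and the depth in reads is unknown, so no counting error is given.

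Values were taken as log2(FPKM + 1) of the deposited FPKM, which understates changes of low genes. A limma model of the 4 groups (8 residual degrees of freedom, trended variances) gave all contrasts, and two-sided tests were adjusted by Benjamini-Hochberg over 13071 genes. Drd3, under the filter, had exact permutation tests. The models were tested on simulated data. The members, lists and named genes were chosen with earlier results of these data known. The rule names the members, 20 genes of the path whatever their value, listed genes called in a contrast, the 2 genes of each list with the smallest season p, the 3 genes most like each member, and for regional lists the highest library and genes at 0 in every library; 3 of the genes so named are not reported here. Alternatives were the pseudocount, filter, scaling, variance model, sample weights, a replicate block, 1 sex alone and leaving out each library. A GC correction (lowess per library, span 0.3, on transcript GC content of 99% of tested genes), the same with the block, the permutation inside groups and the leave-one-out of the ratios and of the synthesis and midbrain genes were added after seeing the data. The software was limma 3.58.1 in R 4.3.3, with Python 3.11.15, pandas 2.3.3, numpy 2.4.6, scipy 1.17.1 and matplotlib 3.10.9. Coordinates and the sequences around transcript starts are RefSeq's, in GRCm38.p6. Transcript GC content was taken from the longest GENCODE transcript of each gene symbol.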

Additional observations from a re-analysis of the deposited data

How the results depend on the processing

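Of 849 differences of the 7 members tested by limma, under alternatives, 782 kept their direction and their side of the threshold. Another 66 changed sign and 1, Th between the sexes under sample weights, passed. Drd3 is not in that count. Between the sexes its permutation p was 0.02, and its adjusted p was 0.509 in limma without the filter. The table gives no reads, so depth sets a limit that cannot be stated, and it weighs most on Drd3 and Dbh. Same-numbered libraries had correlations of deviations of -0.229 to 0.242 (median 0.038). Those of libraries with different numbers were -0.322 to 0.341 (median -0.013). With 3 libraries per group this cannot settle whether the numbers pair libraries, and the labels do not say. The replicate block gave 1 gene for season, 1 in males, 0 in females, 0 for the difference of season effects and 12 between the sexes, with 0 members called. Scaling moved no median of all genes by 0.02 or more.

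Counts of genes called moved for season to 2 with the GC correction, 4 with the GC correction and replicate block and 3 with sample weights, and in females to 1 with sample weights. Between the sexes they moved to 218 with sample weights and 5 with mean FPKM of at least 5, and with sample weights 1 member was called. Leaving out a library gave 1 to 3 for season, 1 to 3 in males, 0 to 1 in females and 8 to 136 between the sexes (136 without female summer replicate 1, and at most 12 otherwise). The cause was not tested. Drd3 between the sexes had 0.063 and an adjusted p of 0.509 in limma without the filter, beside p-values of 0.01 to 0.04 under the other alternatives. The count of correlated pairs with group means removed was 0 with the GC correction and 0 when permuted inside groups, and 0 to 4 leaving out a library. Th with Slc6a3 then had r = -0.072 with the GC correction and -0.025 to 0.78 leaving out a library.

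No difference that changed sign was called. Sample weights gave 0.079 for Drd2 in females, 0.0018 for Adora2a by season, 0.0031 for it in females, 0.0025 for its difference of season effects and -0.0085 for it between the sexes. They gave differences of season effects of -0.11 for Th, -0.026 for Drd1, -0.0075 for Dbh and 0.017 for Ppp1r1b. The GC correction, with or without the replicate block, gave -0.023 for Adora2a in males, differences of season effects of -0.010 for Drd1 and 0.011 for Ppp1r1b, and -0.0073 for Drd1 and 0.0056 for Ppp1r1b between the sexes. Median ratio scaling gave -0.0095 for Adora2a and -0.0052 for Dbh between the sexes and -0.0045 for the Th difference of season effects, and quantile normalization -0.0082 for Dbh between the sexes. Signs also changed when a library was left out. Over both sexes the season differences ran from -0.082 to 0.00039 for Adora2a, -0.13 to 0.023 for Dbh and -0.052 to 0.021 for Slc6a3. Drd3 kept its sign there, at -0.065 to -0.039. In males they ran from -0.040 to 0.095 for Adora2a and -0.21 to 0.087 for Dbh, and in females -0.11 to 0.0064 for Dbh, -0.12 to 0.089 for Drd2 and -0.024 to 0.074 for Ppp1r1b. Differences of season effects ran from -0.050 to 0.088 for Th, -0.13 to 0.17 for Dbh, -0.030 to 0.049 for Drd1 and -0.0050 to 0.21 for Drd2. Between the sexes they ran from -0.036 to 0.047 for Adora2a, -0.063 to 0.086 for Dbh and -0.022 to 0.084 for Drd2. Log2 ratios ran from -0.074 to 0.075 by season and -0.074 to 0.075 by sex for Drd1 to Drd2. For Adora2a to Drd2 they ran from -0.0031 to 0.091 by season and -0.068 to 0.026 by sex, and for Th to Slc6a3 from -0.0042 to 0.13 by sex.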
